A study of Mus musculus with 4 samples.

Results

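The 7 genes described here encode parts of the B cell antigen receptor and its surface partners: the immunoglobulin heavy chain constant genes Ighm and Ighd, the kappa light chain constant gene Igkc, the signalling chains Cd79a and Cd79b, the inhibitory receptor Cd22, and Ms4a1, which encodes CD20. They were picked by gene name, with their counts in these libraries already known, out of 23475 genes in the joined tables. The samples were mRNA libraries of an astrocyte preparation from mouse cerebral cortex, taken at postnatal day 5. WT libraries came from PD1fl/fl mice, which carry a floxed PD-1 gene, and KO libraries from mice the submitters call PD1cKO-Cx3, a conditional deletion of PD-1, an inhibitory receptor of immune cells. What Cx3 stands for, which cells lose the gene, the animals' strain, and whether animals were pooled are not stated in the labels. Each group had 2 libraries, and nothing says that they came from separate animals, so errors measure only the spread between these libraries, which may be technical.

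B cells recognise antigen with a membrane immunoglobulin made of 2 heavy and 2 light chains. A complete heavy chain transcript starts with a variable (V), a diversity (D) and a joining (J) segment, brought together by recombination, and continues into a constant gene. The heavy chain locus can also be transcribed without that joining. Ighm, the constant gene of IgM, lies next to the joining segments, and Ighd, the constant gene of IgD, follows it and is reached by alternative processing of the same long primary transcript. CD79a and CD79b carry the receptor's signal into the cell, CD22 binds sialic acids and dampens the signal, and CD20 is a membrane protein of B cells. In the healthy brain B cells are known mainly from the meninges.

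Library totals ranged from 14224519 to 16961160 counts. The tables cannot check the labels, because Pdcd1, the PD-1 gene, had 0 counts in both WT libraries, was not listed in KO replicate 1 and had 20 counts in KO replicate 2. KO replicate 2 stood apart in sex-linked transcripts, where the Y-linked Ddx3y had 2472 counts and Xist had 0, against 6732 to 8564 counts of Xist in the remaining libraries. The groups are therefore called the libraries labelled KO and WT. Astrocyte markers were abundant in each library, with a summed level from 6827 to 7748 CPM (counts per 1000000, on a library size scaled by edgeR's TMM method) over 10 genes, and Slc1a3, the astrocyte glutamate transporter, between 2738 and 2991 CPM.

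Several other genes that define B cells were missing while some had counts, so the counts do not settle a B cell label for the group as a whole. Pax5, the transcription factor that fixes B cell identity, and Pou2af1, a B cell coactivator, were not listed in any table, which leaves room for at most 4 counts in a library. Of 115 annotated heavy chain V segments and 17 D segments 0 were listed, and of 100 kappa V segments 1 was, Igkv6-13, with 6 counts in WT replicate 1 and 0 elsewhere. Some other genes of B cells had counts, and those given here were chosen after their values were seen. Fcrl1, an Fc receptor-like protein of B cells, had 54 and 21 counts in the libraries labelled KO and 1 and 0 in WT. Cr2, the complement receptor CD21, had 27 and 7 against 16 and 39, with no separation. The genes described here are therefore named by symbol.

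The 4 joining segments of that locus are printed because they lie directly before Ighm and 3 of them carried counts. The sequences are from the GENCODE M21 transcripts (GRCm38, minus strand), 5′ to 3′, and capitals mark the stretch TGGGGNNNNGG, searched on the printed strand only, which encodes the tryptophan and glycines shared by J segments. It was found in 4 of 4. The segments are short, 48 to 54 bases, and much alike from that stretch on.
Ighj1: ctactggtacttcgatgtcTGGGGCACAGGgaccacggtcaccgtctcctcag
Ighj2: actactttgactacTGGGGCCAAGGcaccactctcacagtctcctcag
Ighj3: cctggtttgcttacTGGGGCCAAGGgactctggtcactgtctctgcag
Ighj4: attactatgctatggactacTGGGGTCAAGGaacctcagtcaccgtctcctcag
Ighj1 lies at chr12:113429781-113429833, Ighj2 at chr12:113429468-113429515, Ighj3 at chr12:113429085-113429132 and Ighj4 at chr12:113428514-113428567.

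Ighm and Ighd can be told apart by sequence. The longest run of bases common to their coding sequences was 11 bases, shown in capitals with its surroundings, from the start of the first Ighm constant exon (chr12:113422672-113422730) and from Ighd (chr12:113416140-113416210), both on the minus strand of GRCm38.
Ighm: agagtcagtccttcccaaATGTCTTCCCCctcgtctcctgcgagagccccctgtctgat
Ighd: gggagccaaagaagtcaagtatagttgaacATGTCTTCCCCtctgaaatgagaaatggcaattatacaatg
No source used here says whether the counting was stranded, so reads antisense to these genes cannot be told apart from their own.

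Ighm (ENSMUSG00000076617, chr12:113418558-113422730, minus strand) was the most abundant of the 7 genes in both libraries labelled KO, where it lay higher than in WT. The libraries labelled KO had 852 and 545 counts, and the WT libraries 79 and 97, in the order of replicates 1 and 2 used throughout. The groups did not overlap, and the 2 libraries labelled KO differed from each other by more than the counting error, at 53.2 CPM (exact 95% binomial interval 49.7 to 56.9) and 33.4 CPM (30.6 to 36.3). The WT libraries had 4.68 CPM (3.7 to 5.83) and 6.73 CPM (5.46 to 8.22). These intervals, and the limits set by a count of 0 below, cover counting error only. As group values, Ighm stood at 43.3 ± 14 CPM against 5.7 ± 1.46 CPM (SD, n = 2 each), 7.59-fold higher, which edgeR fitted as 2.92 ± 0.37 on the log2 scale (SE). Without KO replicate 2, the library that stood apart in sex-linked transcripts, that value was 3.22. In bulk libraries like these, more cells that carry a transcript and more transcript per cell cannot be told apart.

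Ighd (ENSMUSG00000104213, chr12:113406604-113416324, minus strand) had counts in the libraries labelled KO and none in WT. Its counts were 175 and 172 against 0 and 0. The libraries labelled KO were nearly equal, at 10.9 and 10.5 CPM, while the zeros of WT replicates 1 and 2 leave room for 0.178 and 0.208 CPM (3 counts per library). The lowest KO level was thus at least 50.5-fold higher than the highest level those zeros allow. Among all genes, 5 had at least 150 counts in both libraries labelled KO and 0 in both WT libraries: Ighd, Ctse (cathepsin E), Hpse (heparanase), the kinase gene Ripk4 and the processed pseudogene Gm13736, the other four named after their values were seen. In the opposite direction 0 genes had this pattern. The cutoff of 150 lies just under the counts of Ighd, so Ighd had to be among them. With a cutoff of 50 counts the pattern held in 13 genes, and in the opposite direction in 1. With a cutoff of 20 these numbers were 60 and 9.

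**Figure D1:**
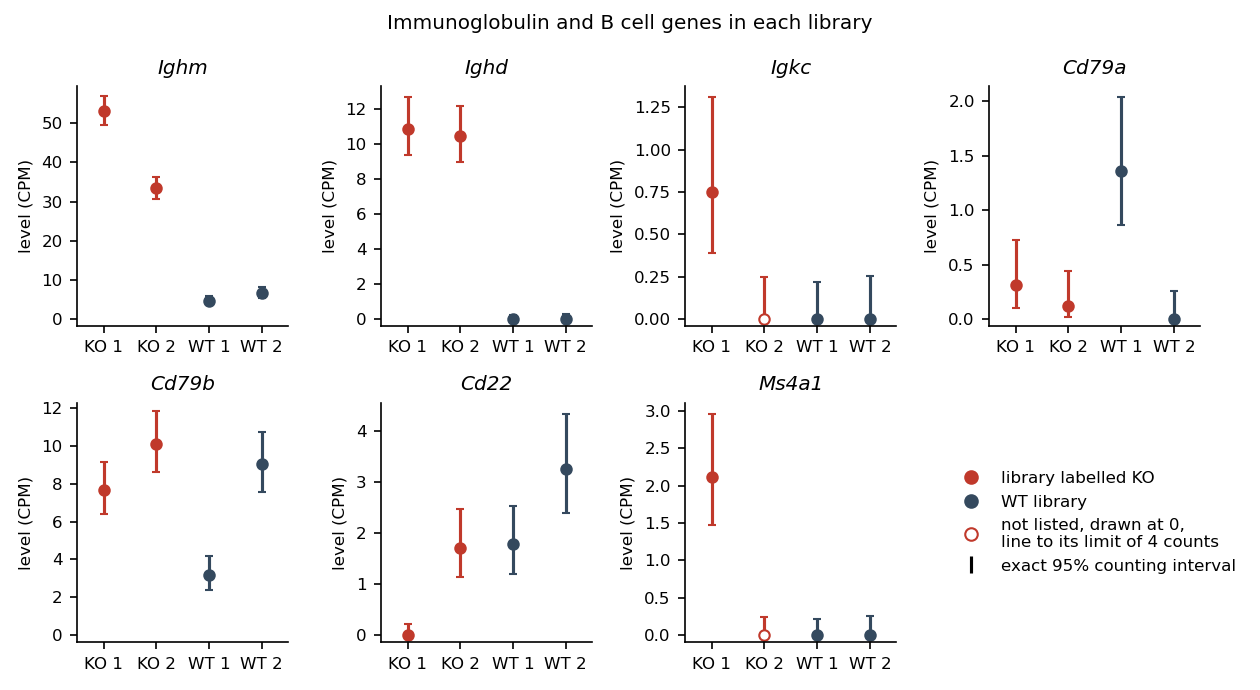
Level of each gene in CPM (linear axis from 0, one panel a gene) in the 4 libraries, with the exact 95% counting interval as a line; red points are libraries labelled KO, dark points WT, and open points are not listed, drawn at 0 with a line to the limit of 4 counts. Ighm and Ighd lie higher in both libraries labelled KO, Igkc and Ms4a1 have counts in KO replicate 1 alone, and Cd79b overlaps between the groups.

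The 2 heavy chain genes did not keep 1 ratio across the libraries. Ighd made up 17% of the summed Ighd and Ighm counts in KO replicate 1 (175 of 1027, exact 95% interval 14.8 to 19.5%) and 24% in KO replicate 2 (172 of 717, 20.9 to 27.3%). In WT it made up 0 of 79 and 0 of 97 counts, with exact 95% upper limits of 4.56% and 3.73%. The WT limits lie below both KO intervals. Both cover counting error only, and replicates differed by more than that, as the zeros described below show, so nothing is read from this comparison. The ratio is a description, since it is built from counts known when the genes were picked.

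Upstream of Ighm, the joining segments printed above also had counts. Ighj3 had 14 and 10 counts in the libraries labelled KO and 0 in both WT libraries. Ighj4 had 9 and 7 against 0 and 0, and Ighj1 had 10 and 2 against 1 and 3. Ighj2 was not listed. Summed over the listed segments, the counts were 33 and 19 in the libraries labelled KO and 1 and 3 in WT. The groups did not overlap in these sums, as in 21.2% of all tested genes with KO higher, while Ighj1 alone did overlap. At counts this low zeros were common, as described below. Ighj4 ends 5.78 kb before Ighm, and Ighm ends 2.23 kb before Ighd, so the listed segments and the constant genes follow one another on one strand. Other constant genes of the locus were not listed: Ighg1, Ighg2b, Ighg2c and Ighg3 of IgG, Igha of IgA and Ighe of IgE.

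**Figure D2:**
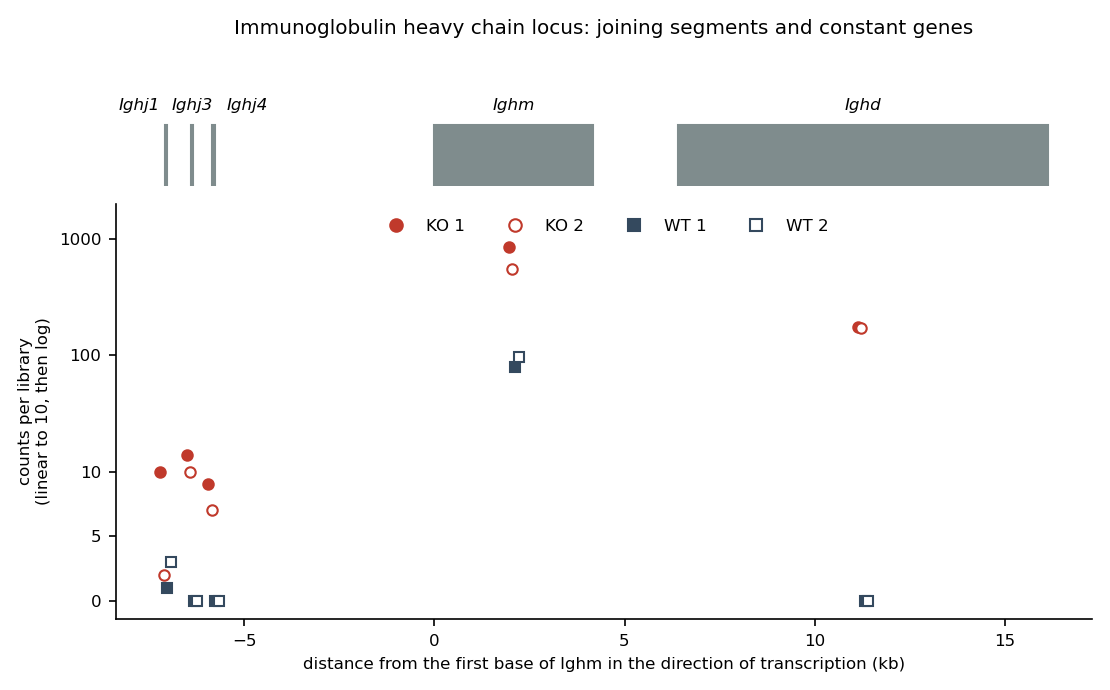
Heavy chain locus drawn to scale (grey boxes, whole gene spans) against distance from the first base of Ighm in the direction of transcription (kb), with each feature's counts per library below it (axis linear to 10, then logarithmic; circles KO, squares WT, filled replicate 1, open replicate 2). Ighm has counts in all 4 libraries, while Ighd, Ighj3 and Ighj4 have counts in the libraries labelled KO and 0 in WT.

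The light chain gave a different picture. Igkc (ENSMUSG00000076609, chr6:70726435-70726966, plus strand), the constant part of kappa chains, had 12 counts in KO replicate 1, was not listed in KO replicate 2 (at most 4 counts) and had 0 counts in both WT libraries. It was thus seen in 1 library only, at 0.749 CPM (exact 95% interval 0.387 to 1.31). Divided by exonic length (GENCODE M21), Igkc reached 1.41 CPM per kb in KO replicate 1, where Ighm had 28.2 CPM per kb and Ighd 5.75. The lambda constant genes Iglc1, Iglc2 and Iglc3 were not listed, nor were Igll1 and Vpreb2 of the surrogate light chain. Vpreb1, its other component, had 1, 3, 0 and 1 counts in KO replicates 1 and 2 and WT replicates 1 and 2, the WT replicate 1 entry not listed. Jchain, which links secreted IgM, was not listed.

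The 2 signalling chains, which work as a pair in B cells, were at very different levels here. Cd79b (ENSMUSG00000040592, chr11:106311341-106314762, minus strand) had 123 and 165 counts in the libraries labelled KO and 54 and 130 in WT. The groups overlapped: at 9.03 CPM WT replicate 2 lay above KO replicate 1, at 7.67 CPM, and WT replicate 1 was lowest at 3.2 CPM. The log2 fold change was 0.54 ± 0.61 (SE, edgeR), and leaving out WT replicate 1 gave -0.02, leaving out WT replicate 2 gave 1.48, so a single WT library sets its size and sign. Cd79a (ENSMUSG00000003379, chr7:24897381-24902197, plus strand) had 5, 2, 23 and 0 counts in the same order. It was highest in WT replicate 1, the library lowest in Cd79b, and at 0 in WT replicate 2. The authors' deposited tables, which each compare 1 KO with 1 WT library, accordingly give Cd79a log2 fold changes of -2.13 and -3.48 against WT replicate 1 and 3.14 against WT replicate 2.

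The remaining surface proteins each had counts in some libraries and 0, or no entry, in others. Cd22 (ENSMUSG00000030577, chr7:30865402-30880342, minus strand) had 0 and 28 counts in the libraries labelled KO and 30 and 47 in WT. KO replicate 2 and WT replicate 1 were almost equal, at 1.71 and 1.78 CPM, and the distance between the groups came from KO replicate 1. The log2 fold change was -1.54 ± 1.77 (SE, edgeR), and without KO replicate 1 it was -0.55. Ms4a1 (ENSMUSG00000024673, chr19:11249675-11266241, minus strand) had 34 counts in KO replicate 1, or 2.12 CPM (exact 95% interval 1.47 to 2.96), was not listed in KO replicate 2 and had 0 counts in both WT libraries. Ms4a1 and Igkc were thus seen in the same single library, which is also the library with the most Ighm.

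Ordered by the mean over the 4 libraries in CPM per kb of exon, the levels ran from Ighm at 13, Cd79b at 5.24 and Ighd at 2.82 to Igkc at 0.352, Cd22 at 0.335, Cd79a at 0.308 and Ms4a1 at 0.0857. That order holds neither in each group nor in each library. In WT Cd79b and Ighm were close, with 2.23 and 6.31 CPM per kb for Cd79b and 2.48 and 3.57 for Ighm, so that Cd79b was the higher in WT replicate 2, and Ighd was at 0. In the libraries labelled KO both values of Ighd (5.75 and 5.54 CPM per kb) lay within those of Cd79b (5.36 and 7.06), so these neighbours did not differ beyond their spread there. The 4 genes from Igkc down had at least 1 library at 0 or not listed each, and their order rests on single libraries.

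Zeros beside well counted libraries were common in these libraries, which bears on Cd22, Cd79a and Ms4a1. Of the 2295 genes with a mean of 20 to 50 counts, where Cd22 falls, 22.5% had a 0 in at least 1 library. Of the 1924 genes with a mean of 5 to 10, where Cd79a and Ms4a1 fall, 71.8% did. At the level of Ighd, 50 to 100 counts, the share was 5.58% of 1614 genes, and 6 of those had 0 in both WT libraries with counts in both libraries labelled KO. Between replicates, 306 genes had 0 in KO replicate 1 and at least 20 counts in KO replicate 2, as Cd22 did, and 179 the reverse, and between the WT libraries these numbers were 401 and 642. Replicates at this level therefore differed by more than the counting intervals show.

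**Figure D3:**
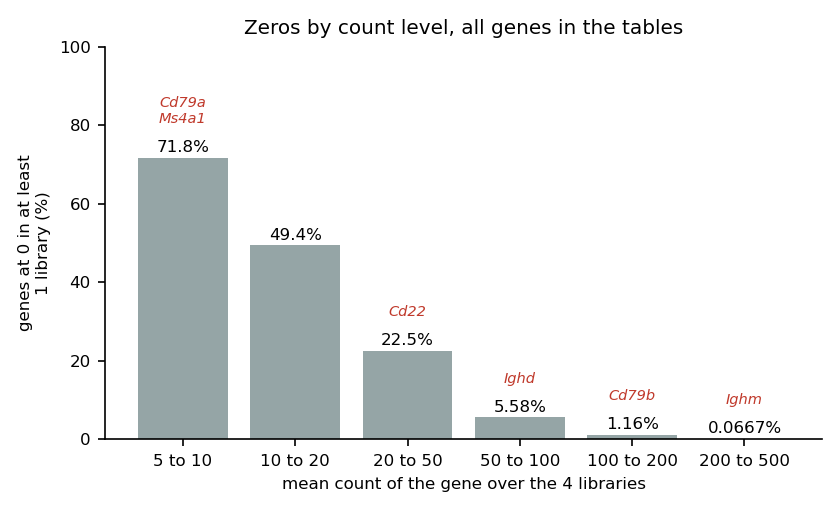
Share of genes with a count of 0, or not listed, in at least 1 of the 4 libraries (bars, linear axis from 0, %), by the gene's mean count over the libraries, with the genes described here named above their range (Igkc, at a mean of 3, lies below the first). The share falls from 71.8% at 5 to 10 counts to 0.0667% at 200 to 500 counts.

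In the comparison of the libraries labelled KO with WT, 17696 genes passed the filter on low counts (a count of about 10 in at least 2 libraries) and were tested by edgeR's quasi-likelihood test with Benjamini-Hochberg adjustment. Of the 7 genes 4 passed: Ighm, Cd79b and Cd22, and Ighd, which passed through the libraries labelled KO alone and so had to differ. Of the 3 genes called over the whole table, 0.017% of those tested, 0 were among them. Ighm and Ighd were higher with an unadjusted p under 0.05, as were 5.88% of all genes. DESeq2 called 2 of the 4 at its adjusted threshold (2.14% of all genes), and limma-voom called 0 (0.158%). In Ighm and Ighd the groups did not overlap with KO higher, as in 21.2% of all genes. In Cd22 they did not overlap with KO lower, as in 18.5%. The 7 genes were picked with this contrast in view, so the counts are given beside the background and nothing is read from them.

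The genes that carry the B cell receptor's signal inside the cell, many of which other blood cells and microglia also use, did not pass edgeR's test in either direction. Of 20 genes in this list, chosen with earlier results of these data known, 19 were listed and 18 tested, and edgeR called 0. Before adjustment 11 were higher and 0 lower at p under 0.05, where 5.88% of all tested genes were higher. DESeq2 called 6 and limma-voom 0, against 2.14% and 0.158% of all tested genes in either direction. In 13 the groups did not overlap with KO higher, as in 21.2% of all tested genes. The log2 fold change was above 0 in 16 of the 18, and in 8842 of all 17696 tested genes. The median log2 fold change was 1.21 against -0.00 over all tested genes. The most abundant were Inpp5d, which encodes the inositol phosphatase SHIP1 (116 and 120 CPM against 57.2 and 55), at a log2 difference of 1.08 ± 0.15 (SE, edgeR adjusted p = 0.134), and the Src family kinase Fyn (101 and 116 CPM against 102 and 82.6), at 0.23 ± 0.18 (edgeR adjusted p = 0.838). The genes that follow were chosen after their values were seen. Lyn, the kinase that starts receptor signalling, had 83.8 and 60.9 CPM against 28.4 and 28.7. Btk, the kinase downstream of it, had 13.7 and 7.1 CPM against 2.84 and 2.5, and Blnk, the adaptor that links them to phospholipase C, had 15 and 18.2 CPM against 8.11 and 9.51. Both KO values of each lay above both WT values. Malt1, a protease of lymphocyte signalling, had a log2 fold change below 0, at -1.28 ± 0.64 (SE, edgeR). Its groups overlapped, with 6.43 and 3.24 CPM against 6.39 and 17.1. Blk, a kinase largely restricted to B cells, was not listed.

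Surface proteins of B cells other than the 7 were spread widely. Of 19 genes 17 were listed and 11 tested, with 0 called by edgeR (before adjustment 5 higher and 0 lower at p under 0.05; 1 called by DESeq2 and 0 by limma-voom) and a median of 1.31. That median was 0.66 without KO replicate 1 and 2.59 without WT replicate 2. Over all tested genes, here and for the transcription factors below, 5.88% were higher before adjustment. DESeq2 called 2.14% of all tested genes and limma-voom 0.158%, in either direction. Cd81, a tetraspanin of most cells, had 441 and 424 CPM against 358 and 403, and Cd37, a tetraspanin of leukocytes, had 31.8 and 32.8 CPM against 8.34 and 7.85 (log2 difference 2.00 ± 0.26 SE, edgeR adjusted p = 0.118). Chosen after its values were seen, Fcrl1, an Fc receptor-like protein of B cells, had 54 and 21 counts in the libraries labelled KO and 1 and 0 in WT. Cr2, the complement receptor CD21, had 27, 7, 16 and 39 counts, with no separation. Transcription factors gave 9 listed of 14 and 6 tested, with 0 called (before adjustment 2 higher and 0 lower at p under 0.05; DESeq2 called 2, limma-voom 0) and a median of 1.38 that ran up to 3.96 without WT replicate 1, with 8 genes tested. Its most abundant genes are not particular to B cells, Tcf3 (166 and 162 CPM against 176 and 168) and Bach2 (13.3 and 16.4 against 10.9 and 19.9). Prdm1, the factor of antibody-secreting cells that other cells also use, chosen after its values were seen, had 31 and 125 counts against 0 and 0. Of the list for the surrogate light chain and antibody secretion 3 of 15 genes were listed. Mzb1, a chaperone of antibody assembly, had 6, 21, 0 and 16 counts, and Vpreb3 had 0, 1, 7 and 0, its WT replicate 2 entry not listed.

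The summed levels of microglia, border macrophage, endothelial and red cell markers were, like Ighm and Ighd, higher in both libraries labelled KO than in WT, though few single markers passed the test. Of the markers tested, edgeR called 1 of 18 for microglia, 0 of 6 for border macrophages and monocytes, 0 of 8 for endothelium and 0 of 3 for red cells. Before adjustment 16, 4, 4 and 3 of these were higher and 0 lower at p under 0.05, DESeq2 called 13, 2, 2 and 1, and limma-voom called 7, 0, 0 and 0. Over all tested genes, for every list in this paragraph, 5.88% were higher before adjustment. By edgeR 0.017% were called, by DESeq2 2.14% and by limma-voom 0.158%, in either direction. All 18 microglia markers had a log2 fold change above 0, as had 8842 of all 17696 tested genes. In 17 the groups did not overlap with KO higher, as in 21.2% of all tested genes. The median of the microglia markers was 1.89. Their summed level was 4367 to 5120 CPM in the libraries labelled KO and 1036 to 1469 CPM in WT. P2ry12, a purinergic receptor of microglia and the 1 marker called, had 668 and 560 CPM against 95.1 and 114 (edgeR adjusted p = 0.0288). The 8 listed markers of border macrophages and monocytes summed to 158 and 66 CPM against 17.6 and 20.2, highest in KO replicate 1, with Mrc1 at 110 and 57.7 CPM against 14.6 and 15.7 and Lyve1 at 21.8 and 1.96 CPM against 0.947 and 0. The 8 endothelial markers summed to 521 and 269 CPM against 160 and 63.1, with Cldn5 at 273 and 136 against 78.2 and 24.4 and Kdr at 93.4 and 41.4 against 24.8 and 10.8. Red cell markers summed to 76.6 and 51.2 CPM against 21.1 and 21, with Hba-a1 at 41.5 and 21.6 against 9.59 and 7.36 and Alas2 at 15.8 and 18.9 against 5.92 and 9.1. The part of any of these cells in the immunoglobulin counts was not tested. The defining T cell markers Cd3d, Cd3e, Cd3g and Cd8a were not listed, and the most abundant genes of the T and NK list, Trbc2 and Cd247, had 49, 24, 44 and 21 counts and 21, 11, 19 and 24 counts. The other 2 genes tested in that list, given after their values were seen, were Zap70, a kinase of T cell receptor signalling, with 35 and 14 counts against 0 and 0, and Cd4, a T cell coreceptor, with 16 and 18 against 0 and 0. The list's median was 3.61, or 1.10 with these 2 set against a floor of 3 counts in WT. In this list edgeR called 0 of 4 tested genes (before adjustment 2 higher and 0 lower at p under 0.05, DESeq2 and limma-voom called 0). The neutrophil list was near 0, with Mpo at 20 counts in KO replicate 1 and 0 or not listed elsewhere and Ngp at 20 counts in WT replicate 2 and at most 3 in each other listed library. Of the dendritic cell list the most abundant were Tcf4 and Zbtb46, which other cells also express, with log2 fold changes of -0.05 and -0.16. The third gene tested, Ccr9, a chemokine receptor of plasmacytoid dendritic cells and some lymphocytes, given after its values were seen, had 29 and 14 counts against 0 and 0. The median of these 3 genes, -0.05, is that of Tcf4, and edgeR called 0 of them (before adjustment 1 higher and 0 lower at p under 0.05; DESeq2 and limma-voom called 0). Without KO replicate 2 the medians were 1.50 for receptor signalling, 1.45 for B cell surface proteins, 1.96 for B lineage transcription and 2.01 for microglia markers.

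Set beside the microglia markers of the same library, the members fell into different orders. Per 1000 counts of the 18 markers, Ighm had 10.4 and 7.64 counts in the libraries labelled KO and 4.51 and 4.58 in WT, so it stayed higher in both. Ighd had 2.13 and 2.41 against 0 and 0, where 3 counts would be 0.171 and 0.142. Cd79b had 1.5 and 2.31 in the libraries labelled KO and 3.08 and 6.14 in WT. The marker counts used as divisor were 82052 and 71358 in the libraries labelled KO and 17509 and 21164 in WT. A gene that rises less than the markers therefore comes out lower, and the CPM of Cd79b itself overlapped between the groups. These ratios describe the libraries and say nothing of which cells held the transcripts.

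**Figure D4:**
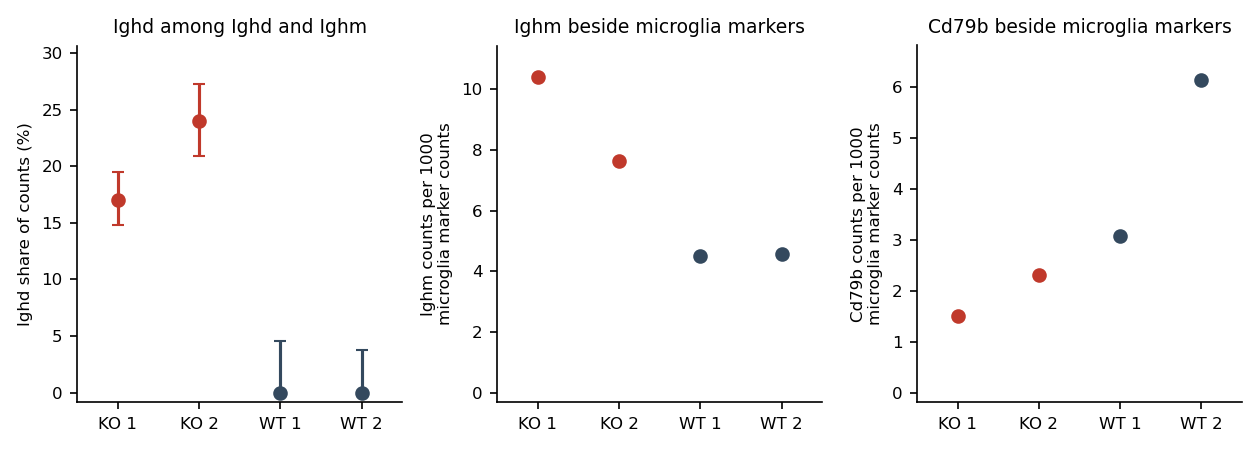
For each library, the Ighd share of Ighd and Ighm counts (%, exact 95% interval), Ighm counts per 1000 microglia marker counts and Cd79b counts per 1000 microglia marker counts (linear axes from 0; red KO, dark WT). The first 2 quantities are higher in both libraries labelled KO. The third is lower in both, where its divisor, the microglia marker counts, is higher.

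**Figure D5:**
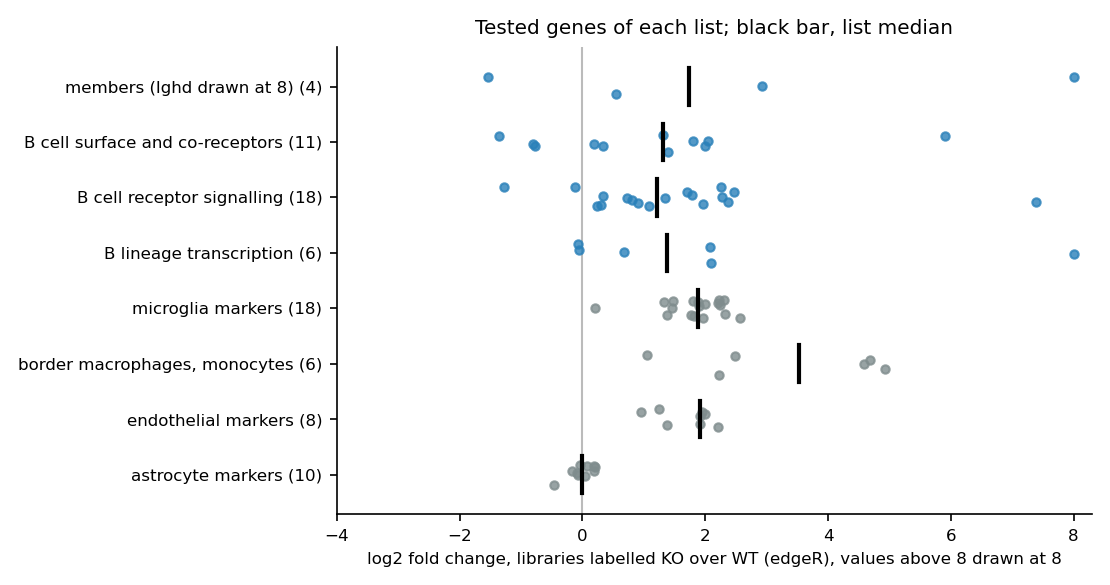
Log2 fold change, libraries labelled KO over WT (edgeR), of each tested gene (points, jittered vertically) in 4 lists around the B cell receptor (blue) and 4 lists of cell type markers (grey), with the number tested in brackets and the list median as a black bar; values above 8 are drawn at 8. The signalling genes centre on 1.21, the microglia markers on 1.89 and the astrocyte markers on 0.00.

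The genes most like each member over the 4 libraries were found by the Euclidean distance between centred log2(CPM + 0.5) profiles, among 13661 genes with a mean of at least 1 CPM. With 4 libraries and that many genes, close matches are common, and they describe shape only. Nearest to Ighm was Ptgs1, which encodes cyclooxygenase 1, at a distance of 0.28 where the median gene lay at 2.89, with 70.1, 44.6, 8.17 and 9.72 CPM. It was followed by Cd80, a costimulatory ligand, at 0.29, the adenosine receptor Adora3 at 0.38, Ccdc88b at 0.39 and P2ry12 at 0.41. Nearest to Ighd were Hpse at 0.22, Ctse at 0.25, Ripk4 at 0.46, Tpm3-rs7 at 0.70 and Pmaip1, which encodes the cell death protein Noxa, at 0.84, where the median gene lay at 4.50. Hpse had 201 and 158 counts and Ctse 203 and 155 in the libraries labelled KO, with 0 in WT. Tpm3-rs7 is a near-identical copy of Tpm3, so the counting could split its reads and its values are uncertain. Nearest to Cd79b were Mir22hg at 0.06, Acad10 at 0.10, Zfp69 at 0.12, Prox1os at 0.17 and Pcdhac1 at 0.18 (median 1.32), all lowest in WT replicate 1. Nearest to Cd22 were the potassium channel subunit Kcns1 at 0.05, Tph2, the neuronal enzyme of serotonin synthesis, at 0.24, Dnah6 at 0.26, Lhfpl5 and Bmp6 at 0.35 each (median 2.26), all lowest in KO replicate 1. The nearest genes of Cd79b and Cd22 thus follow the single low library of each, and none of these 10 is a member of the lists above.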

How the data were processed

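The authors deposited 4 tables, each of 1 library labelled KO and 1 WT library, with whole-number counts per gene, per the file headers. The tables also hold a deposited normalized column, which equals the count scaled to 1000000 (CPM) with 0 replaced by 0.5, the deposited fold change as a ratio, its log2 value, and deposited p-values from an unnamed test. The tools named, per the submitters' processing notes, are HTSeq 0.6.0, TopHat2 2.0.12 and Bowtie2 2.2.3. The notes give mm9 as the build, but 21269 of 23475 gene positions (90.6%) were identical to GENCODE M21 on GRCm38, all 7 genes included.

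Tables were joined by gene, with 0 disagreeing counts. Where 1 library of a pair had 0, a gene was listed only if the other had at least 5, so an unlisted count, set to 0, is at most 4. Groups were compared with edgeR 4.0.16 (TMM, filterByExpr with a minimum count of 10, quasi-likelihood test, R 4.3.3, threshold 0.05) on 2 residual degrees of freedom, and each SE was derived from the F statistic. The values of 2 genes of the lists are not reported here, and they stay in the counts of lists. Members and lists were chosen with earlier results of these data known. The text names the 7 members; from each list the called genes or else the 2 most abundant; the 5 nearest profiles of members with a mean of at least 1 CPM; and others where it says so. Alternatives used DESeq2 1.42.0, limma-voom (limma 3.58.1), other scalings and filters, a replicate block and each library left out.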

Additional observations from a re-analysis of the deposited data

How the results depend on the processing

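Over all genes edgeR called 3, against 378 by DESeq2, 28 by limma-voom, 56 with no filter, 5 among genes with a mean of at least 1 CPM, and 0 to 42 when each library was left out (0 without KO replicate 2, where 1021 had an unadjusted p under 0.05, and 42 without WT replicate 2). Among the 7 genes it called 0, against 2 (Ighm and Ighd) by DESeq2 and with no filter, and 0 to 1 with each library left out (Ighd without WT replicate 2, adjusted p = 0.0395). The log2 fold change of Ighm ran from 2.55 to 3.22 and that of Cd22 from -8.32 to -0.55 with a library left out, while that of Cd79b ran from -0.02 (without WT replicate 1, a change of sign) to 1.48. Leaving out a library lets a gene pass the filter through 1 library, so more genes were tested. List medians then ran from 0.66 to 2.59 for B cell surface genes, 1.10 to 1.50 for receptor signalling and 1.62 to 3.96 for B lineage transcription (2.08 with no filter). The cause of these shifts was not tested. The replicate differences were hardly correlated between the groups (0.0405), which cannot show whether the replicate numbers pair the libraries. With the replicate block edgeR called 4 genes and 0 of the 7, with Ighm at 2.90. Setting unlisted counts to 4 could change no call. A gene not listed in a library has at most 4 counts there and in both libraries of the other group. Such a gene cannot pass the filter, so this setting says nothing of how firm the calls are. Scaling by library totals moved no member's level by more than 1.26%. At these depths a transcript with 0 counts may still be present at up to 0.208 CPM.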
